A study of Mus musculus with 10 samples.

Results

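Neuropeptide precursor genes encode long proteins that are cut, inside secretory granules, into short signalling peptides. In the cortex most of these peptides are made by inhibitory interneurons, and several of the genes are known to respond to neuronal activity through cyclic AMP and the transcription factor CREB. The peptides act on G protein-coupled receptors and change the excitability of neighbouring cells over longer times than fast transmitters do. The 9 genes described here are Adcyap1, Crh, Nucb2, Sst, Npy, Vip, Cck, Tac1 and Penk, out of 22180 genes tested. Probe sets were chosen by their mean level over all arrays, as the brightest with 1 gene symbol, and each gene had exactly 1 such probe set, so brightness made no choice. The list of genes itself was proposed with earlier results of these arrays known, and their counts are therefore not independent evidence of a direction.

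RNA came from primary cultures of mouse cortical neurons, dissected at embryonic day 14.5 to 15.5 and grown for 7 days in vitro, and was measured on 10 Affymetrix GeneChips. WT-Ctrl (n = 2) was wildtype neurons given vehicle for 12 hours, and WT-ARS (n = 4) was wildtype neurons given 5 µM sodium arsenite, an arsenic compound that binds thiol groups of proteins, for the same 12 hours. KO-Ctrl (n = 2) and KO-ARS (n = 2) were neurons from ATF4-deficient embryos under the same vehicle and the same 5 µM arsenite. ATF4 is a DNA-binding protein whose translation rises when cells are stressed. The labels call the replicates biological but do not say what separated them (embryo, litter or culture), and p-values here rest on the spread among those arrays alone. They also name no allele, Cre driver or pooling for the ATF4-deficient embryos.

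All levels are log2 values normalized by robust multiarray average (RMA), and a difference of 1 is a doubling on that scale. Levels of different genes are not set against each other, because each probe set has its own response. The array medians lay between 6.75 and 6.81, and the targeted gene Atf4 was at 9.09 to 9.91 on the 6 wildtype arrays and 7.48 to 7.70 on the 4 ATF4-deficient arrays. A difference was called at an adjusted p under 0.05 in limma, with Benjamini-Hochberg adjustment over all 22180 genes. Olfactory and vomeronasal receptor genes, which neurons of the cortex hardly use, served as a dim reference: 90% of them lay below 6.63. Of the 9 precursors, 7 had a mean above it, while Vip and Tac1 lay below it on every array.

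Most markers of the labelled neurons lay above the dim reference. All 6 pan-neuronal markers lay above the dim reference, as did 10 of 11 measured interneuron markers (Pvalb did not) and 7 of 8 excitatory neuron markers (Emx1 did not). Markers of other cells were above it too: 9 of 12 of astrocytes, 7 of 7 of the oligodendrocyte lineage, 6 of 6 of progenitors, and 4 each of 7 of microglia and 6 of vessels. The mean of the astrocyte list ran from 8.30 to 8.55 in WT-Ctrl, 7.73 to 8.29 in WT-ARS, 7.29 to 7.63 in KO-Ctrl and 7.28 to 7.61 in KO-ARS. The oligodendrocyte lineage list ran from 7.71 to 7.90, 7.41 to 7.65, 7.37 to 7.42 and 7.07 to 7.29 in the same groups. With arsenite in wildtype neurons limma called 1 of its 7 genes lower (Pdgfra), beside 0.252% of all genes. There 6 estimates were negative and 1 positive. Between the genotypes given arsenite, limma called 1 of the 7 lower in ATF4-deficient neurons (Olig2), beside 0.271% of all genes. There 5 estimates were negative and 2 positive. For genotype under vehicle, limma called 3 of the 12 astrocyte markers lower in ATF4-deficient neurons (Mfge8, Sparcl1 and Gfap), beside 0.252% of all genes. Of these 12 estimates 10 were negative and 2 positive, with a median of -1.01 log2. An unadjusted p under 0.05 in limma was reached by 11 of the 12, beside 10.9% of all genes. The pericyte marker Rgs5 was called in the same 2 contrasts and directions as Adcyap1 (limma adjusted p = 0.0344 and 0.045), with 7.32 and 7.85 in KO-Ctrl and all 8 other arrays under the dim reference. With only the arrays compared in the fit, 0 of all genes were called in either contrast. The Rgs5 and astrocyte calls were thus lost there. The vascular list mean, which includes Rgs5, was 6.92 to 6.99 in KO-Ctrl and 6.68 to 6.88 elsewhere. Between the genotypes given vehicle, 3 of its 6 estimates were positive and 3 negative, with a median of -0.00 log2. The part of these lists in the precursor values was not tested. KO-ARS replicate 2 stood apart from the other arrays on the first principal component over all genes, at 29.4 against -18.2 to 8.70.

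The DNA just upstream of these genes is shown because CREB and ATF4 bind known sequence elements there. RefSeq promoter windows (GRCm38.p6, 250 bases before to 50 after an annotated start) were matched by symbol for 7 of the 9 genes. Capitals mark TGACGTCA, the cyclic AMP response element, or its shorter core TGACG, which reads as CGTCA when it lies on the opposite strand. The first 3 sequences are the 250 upstream bases of Adcyap1 (chr17:93198767-93199016, + strand, the more upstream of 2 annotated starts), of Sst (chr16:23890845-23891094, - strand), whose promoter carries the textbook element, and of Nucb2 (chr7:116504119-116504368, + strand), which holds no match. The others are the core matches of Vip, Cck and Tac1 with 12 bases on each side.
Adcyap1: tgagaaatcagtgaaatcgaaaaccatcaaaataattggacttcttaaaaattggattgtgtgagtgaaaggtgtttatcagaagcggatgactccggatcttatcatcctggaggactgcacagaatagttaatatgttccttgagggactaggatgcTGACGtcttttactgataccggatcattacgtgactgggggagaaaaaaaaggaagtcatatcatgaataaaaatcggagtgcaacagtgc
Sst: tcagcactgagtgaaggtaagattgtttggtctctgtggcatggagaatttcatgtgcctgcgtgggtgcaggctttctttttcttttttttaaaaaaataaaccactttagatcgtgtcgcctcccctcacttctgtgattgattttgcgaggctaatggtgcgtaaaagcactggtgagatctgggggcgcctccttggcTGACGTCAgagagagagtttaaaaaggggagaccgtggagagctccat
Nucb2: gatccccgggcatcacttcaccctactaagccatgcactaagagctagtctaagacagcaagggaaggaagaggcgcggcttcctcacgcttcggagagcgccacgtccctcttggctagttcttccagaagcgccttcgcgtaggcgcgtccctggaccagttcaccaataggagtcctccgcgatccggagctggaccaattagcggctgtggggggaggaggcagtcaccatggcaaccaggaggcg
Vip: ggatcactactgTGACGtctttcggggag
Cck: cctgctggactgCGTCAgcactgggtaaa
Tac1: tccctaaaattgCGTCAtttcgaacacaa
Tac1, nearer the start: gctctacaggctCGTCAcgcctgagataa

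The full TGACGTCA stood in 1 of the 7 genes, Sst, at positions -48 to -41 from the start, beside 2.03% of all 27025 genes with a window. The core TGACG, which each full element contains on both strands, stood in 5 of the 7 (Adcyap1, Sst, Vip, Cck and Tac1), beside 23.0% of all genes. Counted from the start, it began at -91 in Adcyap1, -79 in Vip, -47 in Cck, and -197 and -43 in Tac1. TGATGNAA, the composite element of ATF4 and C/EBP factors, stood on neither strand of the 7 genes' windows, beside 4.51% of all genes. A match is a description of the letters and no evidence of binding, and a window without one says only that these letters are not in it.

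Adcyap1 encodes PACAP, a peptide that raises cyclic AMP in its target cells and is known for effects on neuronal survival under stress. It read 7.57 and 7.28 in WT-Ctrl, and 6.94, 6.78, 6.80 and 6.71 in WT-ARS. In KO-Ctrl it read 8.46 and 8.78, and in KO-ARS 7.02 and 6.80. Both KO-Ctrl arrays lay above all 8 other arrays, and the arsenite arrays of the 2 genotypes overlapped near the dim reference.

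In ATF4-deficient neurons arsenite lowered Adcyap1 3.27-fold, from 8.62 ± 0.23 (SD, n = 2) to 6.91 ± 0.16 (SD, n = 2), a difference of -1.71 log2 (SE 0.14, 95% interval -2.02 to -1.39, limma adjusted p = 0.00136). By p-value it was the 1st of the 22180 genes in that comparison. Dropping any 1 of the 10 arrays left the call in place, with a difference of -1.87 to -1.55. When the fit held just those 4 arrays the adjusted p was 0.21, and 0 of all genes were called there.

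Under vehicle, Adcyap1 was 2.29-fold higher in ATF4-deficient than in wildtype neurons (7.42 ± 0.21, SD, n = 2), a difference of 1.19 log2 (SE 0.14, 95% interval 0.88 to 1.51, limma adjusted p = 0.0112). This comparison and the arsenite comparison in ATF4-deficient neurons share the KO-Ctrl arrays, so high values there enter both. The call was lost without WT-Ctrl replicate 2 (1.05 log2, adjusted p = 0.124) and without KO-Ctrl replicate 2 (1.03 log2, adjusted p = 0.17), which leave an arm with 1 array that is assumed to vary like the other groups. It was also lost with only the 4 vehicle arrays in the fit (adjusted p = 0.206), where 0 of all genes were called.

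In wildtype neurons all 4 arsenite arrays lay below both vehicle arrays, and the difference was -0.61 log2 (SE 0.12, 95% interval -0.89 to -0.34). It did not pass (limma adjusted p = 0.0637), and over 18 alternatives the adjusted p ran from 0.0402 to 0.444, with 3 of them under the threshold: dim genes left out, array weights, and a trended and robust prior. Under arsenite the genotypes differed by 0.10 log2 (SE 0.12, 95% interval -0.17 to 0.37, limma adjusted p = 0.785). The test of whether arsenite acts differently in the 2 genotypes gave -1.09 log2 (SE 0.19, 95% interval -1.51 to -0.68), rank 5 of all genes, with an adjusted p of 0.34 in limma. It is not shown, at this threshold, that the response differs between genotypes.

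**Figure D1:**
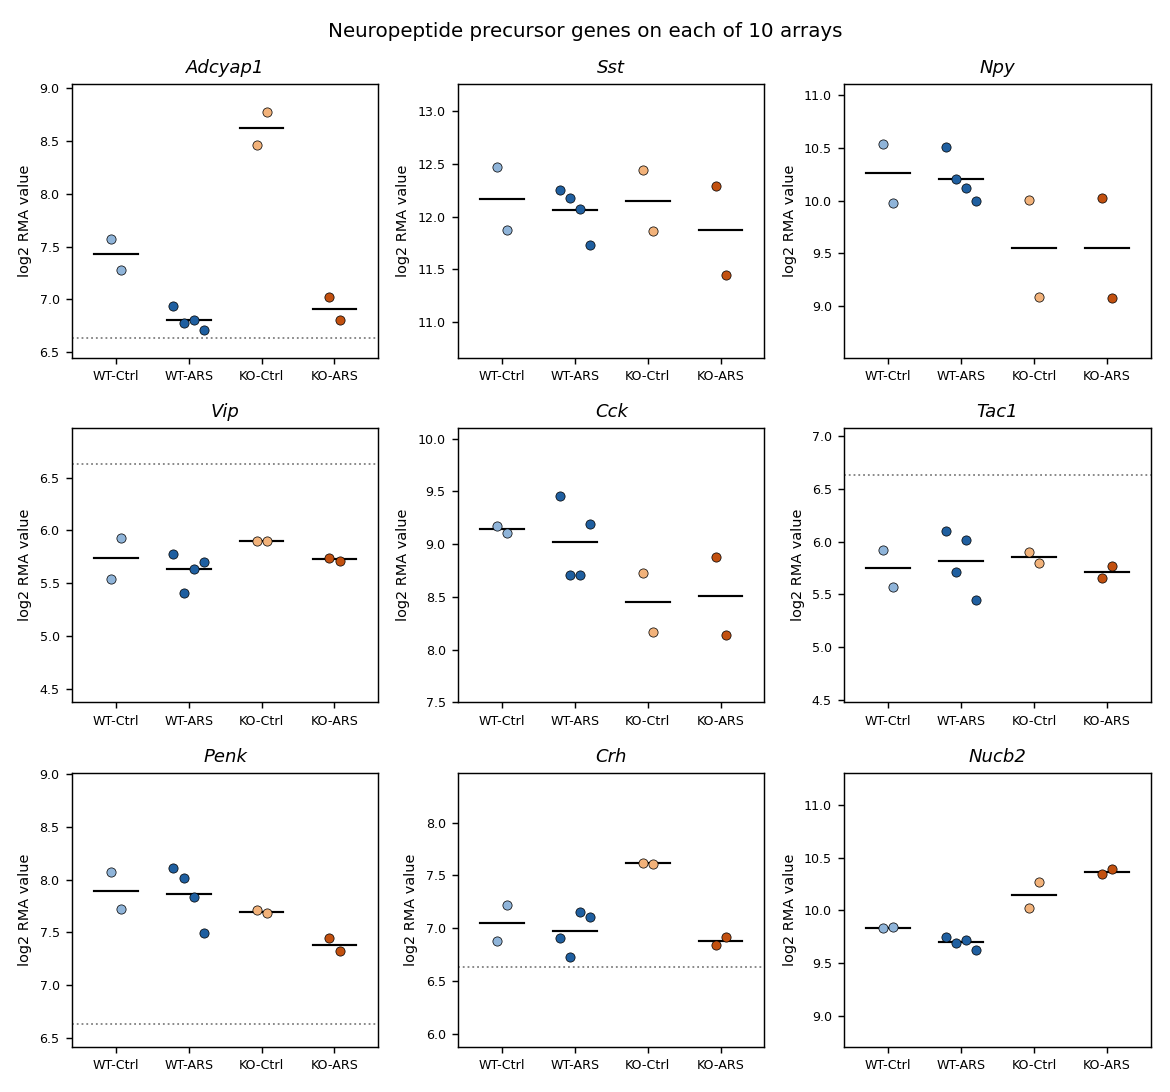
Each panel plots the log2 RMA value of a precursor gene (vertical axis, 2.6 log2 units tall in each panel) in the 4 groups (horizontal axis). Points are single arrays, black bars are group means, and the dotted line is the dim reference of 6.63 where it falls in the panel. Adcyap1 and Crh peak in KO-Ctrl, and Nucb2 is highest in KO-ARS. Points of Sst and Npy lie far apart within WT-Ctrl, KO-Ctrl and KO-ARS, and those of Cck within WT-ARS, KO-Ctrl and KO-ARS.

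Crh encodes corticotropin-releasing hormone, which starts the hormonal stress axis in the hypothalamus and is made by interneurons in the cortex. It read 6.88 and 7.22 in WT-Ctrl, and 6.91, 6.73, 7.15 and 7.11 in WT-ARS. KO-Ctrl read 7.62 and 7.61, and KO-ARS 6.84 and 6.92. As with Adcyap1, both KO-Ctrl arrays lay above the other 8, while the remaining groups overlapped. Those 8 arrays lay at 6.73 to 7.22, near the dim reference of 6.63, where a fall has little room to show.

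Arsenite lowered Crh 1.66-fold in ATF4-deficient neurons, from 7.61 ± 0.0039 to 6.88 ± 0.06 (SD, n = 2 each), a difference of -0.73 log2 (SE 0.15, 95% interval -1.07 to -0.40, limma adjusted p = 0.0449). The size stayed between -0.78 and -0.69 over all 18 alternatives, but many of them, such as leaving out a wildtype array, cannot change it. The call was kept in 6 of the 18. Leaving out WT-ARS replicate 2 kept it, and leaving out any other of the 10 arrays ended it (adjusted p = 0.0521 to 0.221). In wildtype neurons the difference was -0.07 log2 (SE 0.13, 95% interval -0.36 to 0.21, limma adjusted p = 0.904).

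Under vehicle the Crh difference of ATF4-deficient from wildtype neurons was 0.57 log2 (SE 0.15, 95% interval 0.23 to 0.90), with groups that did not overlap, and this did not pass (limma adjusted p = 0.151). Under arsenite the genotypes differed by -0.09 log2 (SE 0.13, 95% interval -0.38 to 0.19, adjusted p = 0.813). The difference between the 2 arsenite responses was -0.66 log2 (SE 0.20, 95% interval -1.10 to -0.22, adjusted p = 0.753).

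Nucb2 encodes nucleobindin 2, a calcium-binding protein of the secretory pathway and the precursor of the appetite-lowering peptide nesfatin-1. It is made in many cell types. WT-Ctrl read 9.83 and 9.84, and WT-ARS 9.75, 9.69, 9.72 and 9.62. KO-Ctrl read 10.02 and 10.27, and KO-ARS 10.34 and 10.39. All 4 ATF4-deficient arrays lay above all 6 wildtype arrays.

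Under arsenite Nucb2 was 1.59-fold higher in ATF4-deficient neurons, at 10.36 ± 0.04 (SD, n = 2) against 9.70 ± 0.05 (SD, n = 4). The difference was 0.67 log2 (SE 0.09, 95% interval 0.47 to 0.87, limma adjusted p = 0.0112). The call was lost without KO-ARS replicate 1 (0.70 log2, adjusted p = 0.078) and without KO-ARS replicate 2 (0.64 log2, adjusted p = 0.136), and kept without each of the other 8 arrays.

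Under vehicle the genotype difference was 0.31 log2 (SE 0.10, 95% interval 0.09 to 0.54, limma adjusted p = 0.268). The arsenite difference was -0.14 log2 in wildtype (SE 0.09, adjusted p = 0.653) and 0.22 log2 in ATF4-deficient neurons (SE 0.10, adjusted p = 0.441). Without KO-Ctrl replicate 1 the latter was 0.09, and without KO-Ctrl replicate 2 the vehicle difference was 0.19. Neither arsenite difference passed, and although the groups did not overlap in either genotype, the difference between the 2 responses did not pass (0.35 log2, SE 0.14, adjusted p = 0.826).

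**Figure D2:**
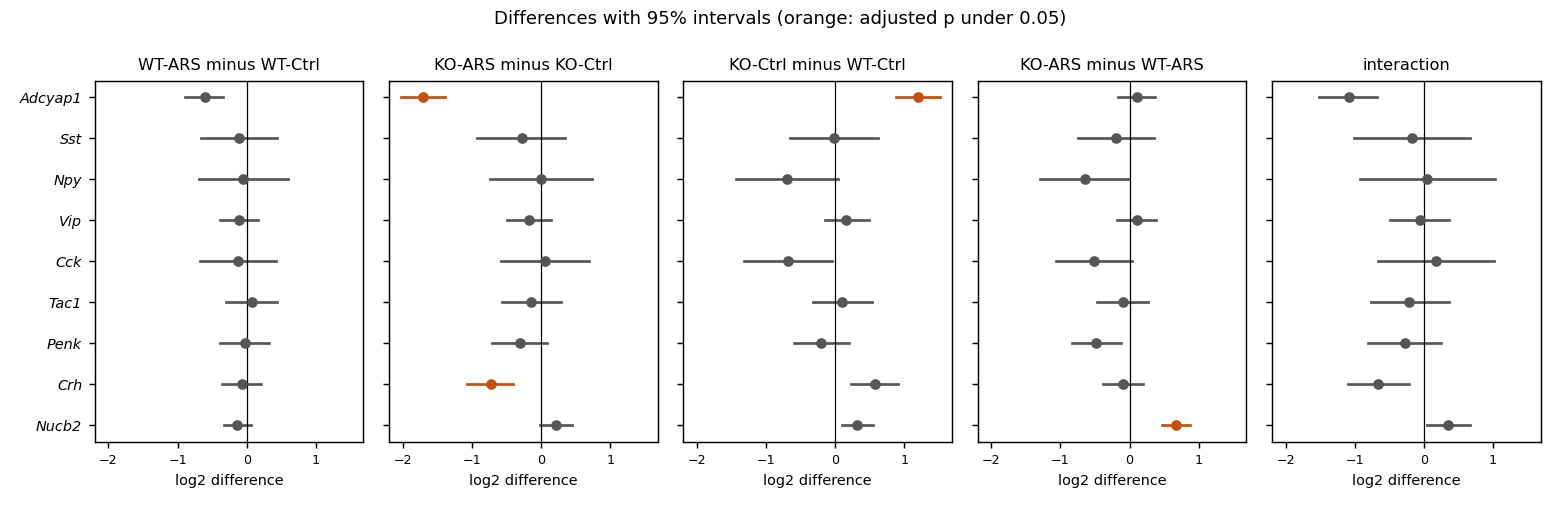
Log2 differences of the 9 precursors (points) with 95% intervals (lines) from limma, for arsenite against vehicle in each genotype, ATF4-deficient against wildtype under each treatment, and the interaction (ATF4-deficient response minus wildtype response). Orange marks an adjusted p under 0.05, which holds for Adcyap1 in 2 panels and for Crh and Nucb2 in 1 panel each. The widest intervals are those of Npy.

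Sst, Npy and Cck, the precursors of large interneuron classes, were called in 0 of the 5 contrasts by limma. Sst encodes somatostatin, which inhibits the dendrites of excitatory neurons and marks a major interneuron class. It read 12.47 and 11.87 in WT-Ctrl, 12.25, 12.18, 12.07 and 11.73 in WT-ARS, 12.44 and 11.86 in KO-Ctrl, and 12.29 and 11.45 in KO-ARS. All 4 groups overlapped. Its differences lay between -0.28 and -0.02 log2 in the 4 comparisons (SE 0.25 to 0.29, limma adjusted p = 0.768 to 0.992). The interval for arsenite in ATF4-deficient neurons ran from -0.92 to 0.35, so a change of that size was not detectable with these arrays.

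Npy encodes neuropeptide Y, an inhibitory peptide of interneurons that often also make somatostatin. It read 10.54 and 9.98 in WT-Ctrl and 10.51, 10.21, 10.12 and 9.996 in WT-ARS. In KO-Ctrl it read 10.01 and 9.09, and in KO-ARS 10.03 and 9.08. One ATF4-deficient array of each treatment thus stood at the low end of the wildtype range and the other well below it. The difference of ATF4-deficient from wildtype neurons was -0.70 log2 under vehicle (SE 0.34, 95% interval -1.44 to 0.04, limma adjusted p = 0.484) and -0.65 under arsenite (SE 0.29, 95% interval -1.29 to -0.01, adjusted p = 0.403). Neither passed. Without KO-Ctrl replicate 2 the vehicle difference was -0.24, and without KO-ARS replicate 2 the arsenite difference was -0.18. Arsenite itself gave -0.05 log2 in wildtype and 0.00 in ATF4-deficient neurons (adjusted p = 0.976 and 1).

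Cck encodes cholecystokinin, a peptide of basket interneurons and of some excitatory neurons. It read 9.17 and 9.11 in WT-Ctrl and 9.46, 8.71, 8.71 and 9.19 in WT-ARS, against 8.73 and 8.17 in KO-Ctrl and 8.88 and 8.14 in KO-ARS. The vehicle groups did not overlap, and the arsenite groups did. ATF4-deficient minus wildtype was -0.69 log2 under vehicle (SE 0.29, 95% interval -1.32 to -0.05, limma adjusted p = 0.415) and -0.51 under arsenite (SE 0.25, 95% interval -1.06 to 0.04, adjusted p = 0.453). Neither passed, without KO-Ctrl replicate 2 the former was -0.40, and without KO-ARS replicate 2 the latter was -0.14. Arsenite gave -0.12 and 0.06 log2 in the 2 genotypes (SE 0.25 and 0.29).

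In each of the 3 groups of 2 arrays the array numbered 2 was the lower for all 3 genes. Replicate 1 exceeded replicate 2 in WT-Ctrl, KO-Ctrl and KO-ARS by 0.59, 0.57 and 0.84 for Sst, by 0.56, 0.92 and 0.95 for Npy, and by 0.07, 0.56 and 0.74 for Cck. Penk was also lower on replicate 2 in these groups, by 0.34, 0.03 and 0.13. Nucb2 was higher on it, by 0.01, 0.25 and 0.06, and the other precursors went both ways. The 11 interneuron markers did not follow as a whole: 6 were lower and 5 higher on replicate 2 in WT-Ctrl, 5 lower, 4 higher and 2 equal to 2 decimals in KO-Ctrl, and 9 lower and 2 higher in KO-ARS. Among them Dlx5, a homeobox gene of interneuron development, was lower on replicate 2 by 0.75 in KO-Ctrl and 0.63 in KO-ARS, while Reln, which encodes the matrix protein reelin, was higher by 0.14 and 0.19. The mean of the 11 interneuron markers was 8.47 and 8.48 in WT-Ctrl and 8.29 to 8.48 in WT-ARS, against 8.18 to 8.31 in KO-Ctrl and 7.96 to 8.20 in KO-ARS. None of them was called in any comparison (limma), and 5 and 7 of the 11 had an unadjusted p under 0.05 between the genotypes given vehicle and given arsenite, beside 10.9% and 12.1% of all genes. In cultures measured as a whole, fewer cells of a type and less RNA per cell cannot be told apart, and the part of these markers in the peptide levels was not tested.

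Penk encodes proenkephalin, from which the opioid peptides Met- and Leu-enkephalin are cut. It read 8.07 and 7.72 in WT-Ctrl, 8.11, 8.02, 7.84 and 7.49 in WT-ARS, 7.71 and 7.68 in KO-Ctrl, and 7.45 and 7.32 in KO-ARS. Both KO-ARS arrays were below every other array. The genotype difference under arsenite was -0.48 log2 (SE 0.16, 95% interval -0.83 to -0.13) and did not pass (limma adjusted p = 0.275). Arsenite gave -0.31 log2 in ATF4-deficient neurons (SE 0.18, adjusted p = 0.557) and -0.03 in wildtype (SE 0.16, adjusted p = 0.971).

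Vip encodes vasoactive intestinal peptide, a close relative of PACAP that marks interneurons which inhibit other interneurons. It lay between 5.41 and 5.93 on all 10 arrays, under the dim reference. Tac1 encodes the precursor of substance P and lay between 5.45 and 6.10, also under it. Their differences were between -0.17 and 0.16 log2 for Vip (adjusted p = 0.704 to 0.839) and between -0.14 and 0.10 for Tac1 (adjusted p = 0.844 to 0.933). Probe sets this dim respond little to a change in RNA.

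Counted together, 0 of the 9 precursors were called by limma for arsenite in wildtype neurons, beside 0.482% of all genes called. In ATF4-deficient neurons 2 were called, both lower (Adcyap1 and Crh), beside 1.15% of all genes called and 0.523% called lower. For genotype under vehicle 1 was called, higher (Adcyap1), beside 0.433% of all genes called and 0.18% called higher. Under arsenite 1 was called, higher (Nucb2), beside 0.343% of all genes called and 0.0721% called higher. In these contrasts in turn 1, 2, 4 and 3 of the 9 had an unadjusted p under 0.05 in limma. The shares of all genes were 10.9%, 12%, 10.9% and 12.1%. For the interaction 0 of 9 and 0 of all genes were called by limma, while 3 of the 9 and 1330 of all genes (6% of them) had an unadjusted p under 0.05. The median difference of the 9 genes was -0.11, -0.17, 0.10, -0.10 and -0.17 log2 in these 5 contrasts in turn, against -0.02, -0.01, 0.00, 0.02 and 0.02 over all genes.

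Groups that did not overlap were common over all genes. With arsenite in wildtype neurons 2 of the 9 precursors separated (20.6% of all genes), both lower (12.7%): Adcyap1 and Nucb2. In ATF4-deficient neurons 6 of 9 did (38.8%), of which 5 were lower (20.7%), Adcyap1, Vip, Tac1, Penk and Crh, and Nucb2 was higher (18.1%). Between the genotypes given vehicle 5 of 9 separated (42.5%), with Adcyap1, Crh and Nucb2 higher (21.2%) and Cck and Penk lower (21.4%) in ATF4-deficient neurons. Between the genotypes given arsenite 2 of 9 did (18.5%), Nucb2 higher (10.6%) and Penk lower (7.95%).

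Candidates for a profile like that of a called precursor were the 13523 other genes whose mean over all arrays lay above the dim reference. Those with the profile closest to each called precursor were found by the root mean square difference of centred log2 values over the 10 arrays. For Adcyap1, whose own root mean square deviation was 0.70, they were Nr4a2 (0.147 log2), an orphan nuclear receptor, and Npas4 (0.180), a transcription factor that depolarisation induces. Nr4a2 had a mean of 9.21 in WT-Ctrl, 8.60 in WT-ARS, 10.12 in KO-Ctrl and 8.74 in KO-ARS, and Npas4 had 7.36, 6.91, 8.58 and 6.81. For Crh (own deviation 0.29) they were Acan (0.099), the aggrecan of the perineuronal matrix, and Fam189a2 (0.132). Acan ran from 7.02 to 7.14 in KO-Ctrl but lay around or below the dim reference of 6.63 elsewhere. It ran from 6.56 to 6.73 in WT-Ctrl, 6.31 to 6.59 in WT-ARS and 6.56 to 6.58 in KO-ARS. For Nucb2 (own deviation 0.27) they were Hsp90b1 (0.057), the endoplasmic reticulum chaperone GRP94, and Uba6 (0.078), a ubiquitin-activating enzyme. Hsp90b1 ran from 11.06 to 11.24 on the wildtype arrays, 11.48 to 11.67 in KO-Ctrl and 11.74 to 11.86 in KO-ARS.

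**Figure D3:**
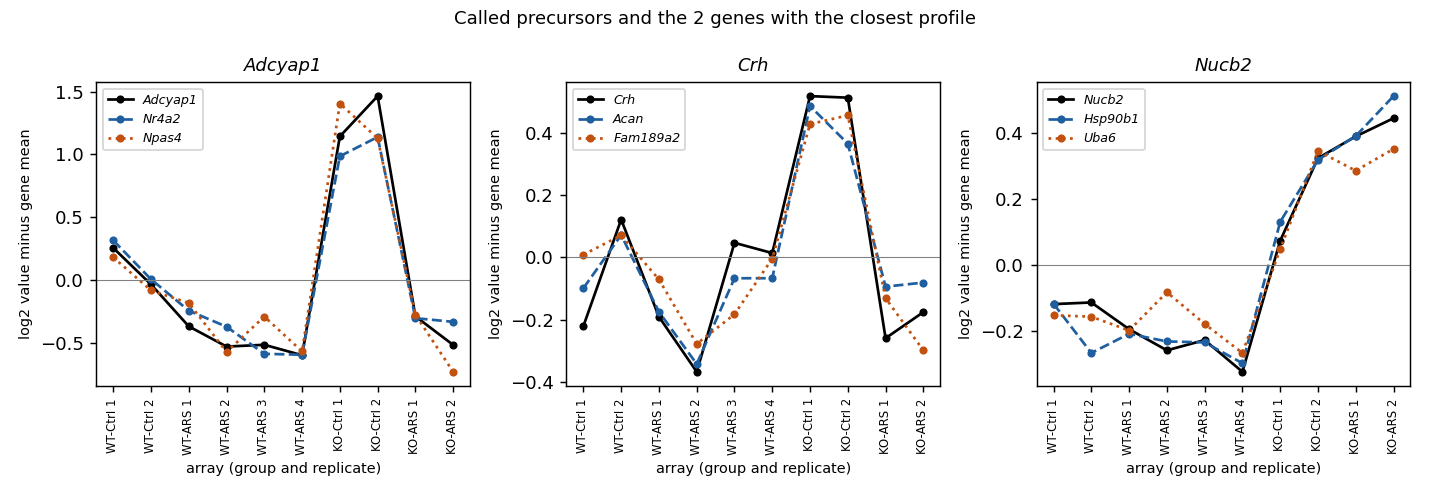
Log2 value minus the gene's own mean (vertical axis) on each of the 10 arrays (horizontal axis) for Adcyap1, Crh and Nucb2 (solid black) and the 2 genes with the closest profile (dashed and dotted). Lines only join the points of a gene and carry no order. Adcyap1, Nr4a2 and Npas4 are all highest on both KO-Ctrl arrays, and Hsp90b1 follows Nucb2 with a root mean square difference of 0.057 log2.

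The 10 transcription factors of the activity-induced list, which includes Nr4a2 and Npas4, had a list mean of 7.70 to 7.83 in WT-Ctrl, 7.23 to 7.47 in WT-ARS, 8.26 to 8.29 in KO-Ctrl and 7.17 to 7.44 in KO-ARS. For arsenite in ATF4-deficient neurons 5 fell (Nr4a3, Npas4, Fos, Nr4a2 and Nr4a1), 0 rose and 5 did not pass, with a median of -0.95 log2. Over all genes 0.523% were called lower in that comparison. For genotype under vehicle 4 were higher (Fos, Npas4, Nr4a1 and Nr4a2), beside 0.18% of all genes, 0 lower and 6 did not pass, with a median of 0.59. Of these 10 estimates 7 were positive and 3 negative (Egr1, Egr2 and Egr3). In wildtype neurons given arsenite 1 passed, Egr3 (-0.80 log2), beside 0.252% of all genes called lower. There 9 of the 10 estimates were negative, beside 55.1% over all genes, and the median was -0.40. Of the 10, 6 had an unadjusted p under 0.05 in limma, beside 10.9% of all genes in wildtype neurons given arsenite. Nr4a3 had a larger estimate there (-1.06 log2, SE 0.20) that did not pass (limma adjusted p = 0.0554). With only the arrays compared in the fit, 0 of all genes were called for arsenite in ATF4-deficient neurons or for genotype under vehicle. These lists were written with earlier results known, and their part in the Adcyap1 and Crh values was not tested. Of 7 measured CREB family members and coactivators 0 were called by limma in any comparison, with 0 to 3 per contrast at an unadjusted p under 0.05, beside 6% to 12.1% of all genes.

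**Figure D4:**
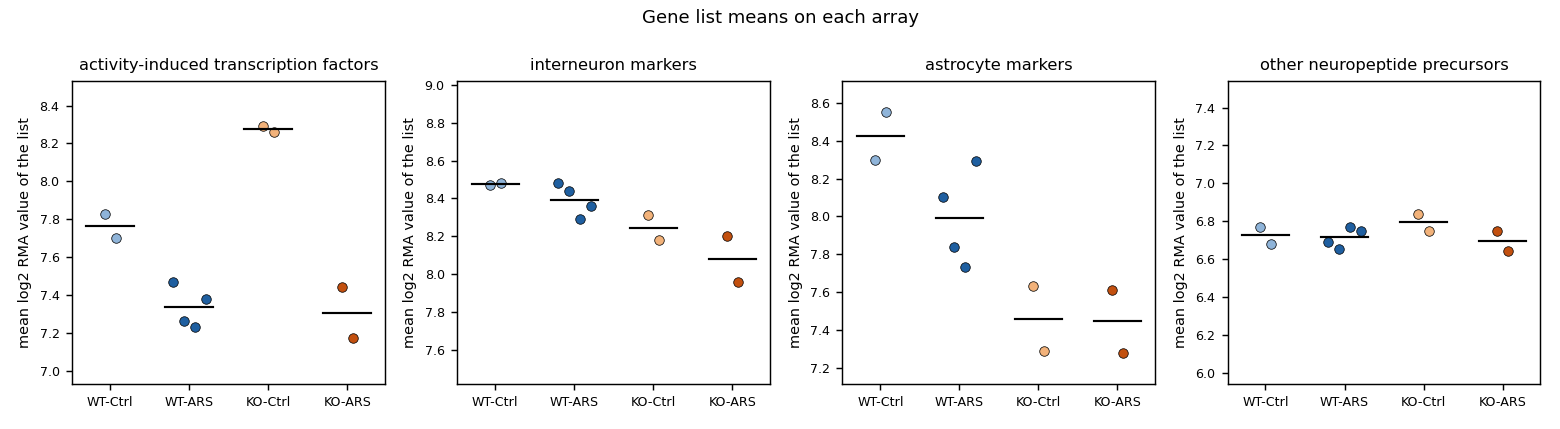
Mean log2 RMA value of 4 gene lists (vertical axis) on each array by group (horizontal axis), with points for arrays and bars for group means. The activity-induced list is highest in KO-Ctrl (8.26 to 8.29), the astrocyte list lies at 7.28 to 7.63 on the 4 ATF4-deficient arrays against 7.73 to 8.55 on the 6 wildtype arrays, and the mean of the 47 other neuropeptide precursors lies between 6.64 and 6.84 on all arrays.

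Processing of the precursors depends on convertases and amidating enzymes. Pcsk1, the prohormone convertase PC1/3 that makes the first cuts, was the called gene among 6 measured. It read 6.62 and 6.6 in WT-Ctrl, 6.86, 6.59, 6.55 and 6.66 in WT-ARS, 7.99 and 8.59 in KO-Ctrl, and 6.96 and 7.30 in KO-ARS. Both WT-Ctrl arrays and 2 of the 4 WT-ARS arrays were below the dim reference. With the WT-Ctrl arrays set to that reference, mean Pcsk1 was 3.15-fold higher in ATF4-deficient neurons under vehicle. That fold is an estimate without an interval, not a lower bound. On the values as measured the means were 8.29 and 6.61 (limma adjusted p = 0.011). With arsenite Pcsk1 fell by 1.16 log2 in ATF4-deficient neurons (SE 0.18, limma adjusted p = 0.0167). Both calls were lost with only the arrays compared in the fit, where 0 of all genes were called. The other 5 genes, among them Cpe and Pam, which trim and amidate peptides, did not pass in any comparison. For arsenite in ATF4-deficient neurons Pam was -0.86 log2 with a limma adjusted p of 0.0563.

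Among 23 genes for receptors of the 9 peptides and the binding protein of corticotropin-releasing hormone, Npy1r was the single one called. Npy1r, the Y1 receptor of neuropeptide Y, read 8.95 and 8.93 in WT-Ctrl, 8.27, 7.86, 7.76 and 8.31 in WT-ARS, 9.21 and 9.21 in KO-Ctrl, and 8.17 and 7.96 in KO-ARS. Every arsenite array lay below every vehicle array. Arsenite lowered it by 0.89 log2 in wildtype (SE 0.15, limma adjusted p = 0.0381) and by 1.14 log2 in ATF4-deficient neurons (SE 0.17, adjusted p = 0.0143), and the interaction was -0.25 (SE 0.23, adjusted p = 0.898). The call in ATF4-deficient neurons was lost with only the arrays compared in the fit, where 0 of all genes were called. Adcyap1r1, the PACAP receptor PAC1, read 9.54 and 9.87 in WT-Ctrl and 9.02 and 8.56 in KO-Ctrl, and that difference did not pass (-0.92 log2, SE 0.21, adjusted p = 0.088). Astrocytes express this receptor too, and the astrocyte list differed between the same groups as given above; its part in the value was not tested.

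Beyond the 9 genes, 47 of 49 listed neuropeptide precursors were measured, 26 of them above the dim reference, and 0 were called by limma in any comparison. At an unadjusted p under 0.05, the arsenite contrasts held 0 (wildtype) and 5 (ATF4-deficient), the genotype contrasts 6 (vehicle) and 2 (arsenite), and the interaction 2. The shares over all genes were 10.9%, 12%, 10.9%, 12.1% and 6%. Their median difference was -0.01, -0.07, 0.07, -0.04 and -0.10 log2 in the same order. For arsenite in ATF4-deficient neurons 38 of the 47 estimates were negative and 9 positive, beside 52.8% negative over all genes.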

How the data were processed

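The values are log2 expression as deposited by the authors. The submitters' processing notes name Partek 6.6 and RMA for them, and per the labels' protocols biotin-labelled cRNA was hybridised. RMA equalises the distributions of the arrays, so it would hide a shift common to most transcripts, and the deposited table holds no detection calls, so a dim reference stood in for them. Scanner files were not used here.

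Of 41345 probe sets, 23521 had 1 gene symbol in the platform annotation, 1814 several and 16010 no entry. The first kind gave 22180 genes, each read from its probe set with the highest mean. One limma 3.58.1 fit in R 4.3.3 estimated the 4 group means from all 10 arrays (6 residual and 5.08 prior degrees of freedom) and gave 5 contrasts. Array number limits the precision.

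The 9 genes, the gene lists and the tests were chosen with earlier results of these data known. Named genes are the 9 members, called genes of the 5 pathway lists (up to 4 per list and contrast, except the fifth activity-induced gene, named to complete a count), the 2 closest profiles of each called member, and Atf4. Adcyap1r1, Cpe, Pam, Nr4a3 in wildtype neurons, and Egr1, Egr2 and Egr3 under vehicle were chosen after their values were seen. So were the genes named individually from marker lists and those in the closing section. Alternatives were the mean of a gene's probe sets, a filter on dim genes, equal medians, quantile normalization, array weights, a trended and robust prior, only the arrays compared, the replicate number as a block, and each array left out. Figures were drawn with matplotlib 3.10.9. Promoter sequences are RefSeq's (GRCm38.p6) and were matched by symbol; the sources used here give no build for the array.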

Additional observations from a re-analysis of the deposited data

Results flagged for a closer look

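The arsenite estimates of Nucb2 had opposite signs in the 2 genotypes, and neither passed the threshold. All 4 WT-ARS arrays lay below both WT-Ctrl arrays, and both KO-ARS arrays lay above both KO-Ctrl arrays. The difference between the responses was 0.35 log2 (SE 0.14, limma adjusted p = 0.826), ran from 0.23 to 0.48 over 17 alternatives and passed in 0 of them.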

How the results depend on the processing

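No called difference of a precursor changed sign under any of the alternatives listed under the processing. Members called for arsenite in wildtype were 1 (Adcyap1) in place of 0 with dim genes left out, with array weights and with the trended and robust prior. For arsenite in ATF4-deficient neurons they were 1 in place of 2 with equal medians (Crh, adjusted p = 0.0503) and with array weights (Crh, 0.0804), and 0 with only the arrays compared. For genotype under vehicle they were 0 in place of 1 with only the arrays compared. Leaving out an array gave 0 to 0, 1 to 2, 0 to 1, 0 to 1 and 0 to 0 members in the order of the 5 contrasts. Genes called of all were 107, 256, 96, 76 and 0. The first became 162 (dim genes left out), 186 (array weights), 17 (replicate block), 11 (only the arrays compared) and 0 to 75 (an array left out). The second became 135 (array weights), 0 (only the arrays compared) and 50 to 200 (an array left out). The third became 193 (dim genes left out), 228 (array weights), 165 (replicate block), 0 (only the arrays compared) and 0 to 99 (an array left out). The fourth became 40 (array weights), 4 (replicate block), 41 (only the arrays compared) and 1 to 64 (an array left out). Quantile normalization moved the first split from 51 higher and 56 lower to 89 and 63, and the third from 40 and 56 to 59 and 55. The causes were not tested. Deviations of same-numbered arrays from their group means correlated at 0.53 between KO-Ctrl and KO-ARS (1 value, since arrays of a pair mirror each other), 0.40 and 0.55 between WT-ARS and KO-ARS, and 0.18 and 0.30 between WT-ARS and KO-Ctrl. WT-Ctrl gave 0.17 and 0.00 with WT-ARS, -0.08 with KO-Ctrl and 0.00 with KO-ARS, so not every pair deviated together and the numbers were not taken to pair the samples. With the replicate number as a block, which leaves WT-ARS replicates 3 and 4 without weight, Nucb2 under arsenite was 0.64 log2 (adjusted p = 0.0923), so 0 in place of 1 member was called there, and Adcyap1 and Crh kept their calls for arsenite in ATF4-deficient neurons (adjusted p = 0.00686 and 0.0401).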

Other observations

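Among the other neuropeptide precursors, 3 were picked out after their values were seen. Cort, which encodes the somatostatin relative cortistatin, read 6.89 and 6.38 in WT-Ctrl and 6.25 to 6.69 in WT-ARS, against 7.91 and 7.33 in KO-Ctrl and 7.56 and 6.94 in KO-ARS. Its difference of ATF4-deficient from wildtype neurons was 0.99 log2 under vehicle (SE 0.25, limma adjusted p = 0.126). With arsenite on both sides it was 0.78 log2 (SE 0.21, limma adjusted p = 0.19), and neither passed. Cort levels in both wildtype groups are around the dim reference. Nts, which encodes neurotensin, read 7.99 and 7.90 in WT-Ctrl against 7.37 and 6.72 in KO-Ctrl (-0.90 log2, SE 0.20, limma adjusted p = 0.088). Pnoc, which encodes the opioid-like peptide nociceptin, read 8.49 and 7.81 in KO-Ctrl and 7.60 and 7.13 in KO-ARS (-0.79 log2, SE 0.23, limma adjusted p = 0.163). These differences did not pass either.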
